A study of Mus musculus with 8 samples.

Results

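Tumour necrosis factor and the related death ligands act through receptors at the cell surface, whose cytoplasmic death domains gather adaptors such as FADD and turn on caspase-8. A separate route runs through the mitochondrion, where BH3-only proteins set the pore-forming BCL2 relatives BAX and BAK against their anti-apoptotic relatives, and release of cytochrome c builds the apoptosome around APAF1 and caspase-9. Caspase-8 joins the routes by cutting BID, IAP proteins hold caspases in check, and loss of beta cells to cytokines is an old theme of diabetes research. The 36 genes described here are the ligand *Tnf* and its sheddase *Adam17*, 4 receptors, 6 adaptors and kinases, 6 caspase and apoptosome genes, 14 BCL2 family genes, and 3 IAP genes with the IAP antagonist *Diablo*. They were chosen by name, the brightest probe stood for each gene, and 35 of the 36 could be compared between the genotypes, among 16959 genes in all.

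Islets came from male mice on a C57BL/6 background fed a standard diet, and all animals had a floxed *Cnr1* gene, which encodes the cannabinoid 1 receptor. The 4 β-CB1R+/+ mice were *Cnr1* flox/flox:MIP-Cre/ERT- littermates and the 3 β-CB1R-/- mice were *Cnr1* flox/flox:MIP-Cre/ERT+, both given tamoxifen, and the age of the array animals is not given in the sources used here. The sample labels state only CB1 KO or WT and describe the animals as a global knockout, whereas the series title and the paper name the beta cell specific knockout. The controls had no Cre transgene, which uses the mouse insulin promoter and is known to carry a human growth hormone minigene, so that transgene and deletion cannot be told apart. Islets were freed with collagenase and picked by hand, and total RNA was labelled with Cy3 and hybridised to 8 Agilent arrays, with β-CB1R-/- mouse 2 on repeat arrays that were averaged. All arrays lay on 1 slide with the genotypes on opposite sides, so position and genotype cannot be told apart either.

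Intensities are log2 values with 0 at the 75th percentile of the array, and a difference is always β-CB1R-/- minus β-CB1R+/+. Between 33304 and 39988 of 55681 probes were well above background on an array. The islet hormones *Ins1*, *Ins2* and *Gcg* were well above background on all 8 arrays. As a check of the labels, *Cnr1* read −1.11, −0.77, −0.53 and −0.015 in the β-CB1R+/+ mice and −2.30, −3.13 and −2.28 in the β-CB1R-/- mice, without overlap. The log2 difference of *Cnr1* was −1.97 (limma, adjusted p = 0.193). Whole islets were profiled, so fewer cells of a type and less RNA per cell cannot be told apart, and the means of 9 beta cell markers were 6.26 to 6.67 in β-CB1R+/+ and 6.04 to 6.46 in β-CB1R-/- mice, with 1 of the 9 higher in the latter.

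No member passed an adjusted p of 0.05 (limma, all adjusted p at least 0.999), against 43 of 39165 probes (0.11%) across the array. Of the 35 members, 16 were higher and 19 lower in β-CB1R-/- islets, with a median log2 difference of −0.040, beside −0.039 over all 16959 genes. At an unadjusted limma p under 0.05 there were 2 members, *Tnfrsf1a* and *Tnfrsf10b*, against 3.9% of all genes. In 1 member, *Bid*, all β-CB1R-/- mice lay above all β-CB1R+/+ mice, against 4.83% of all genes whose groups did not overlap. Both shares of members are close to those of the whole array.

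**Figure D1:**
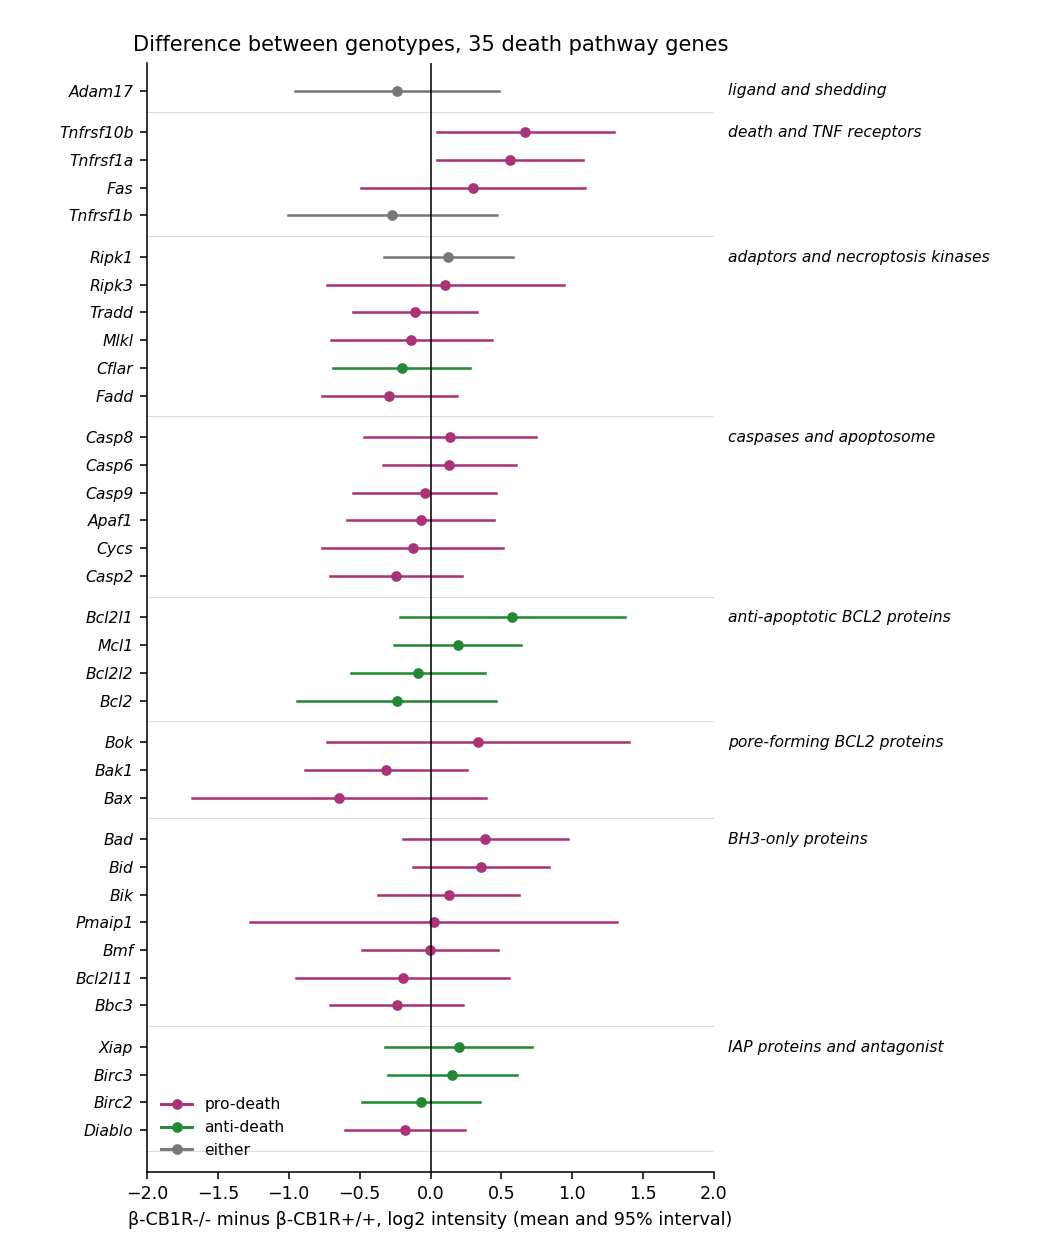
Log2 difference in intensity between β-CB1R-/- and β-CB1R+/+ islets (x axis) for the brightest probe of each of the 35 members compared (y axis), in order of role, with points for the difference and lines for its 95% interval. Only the intervals of *Tnfrsf10b* and *Tnfrsf1a* lie clear of 0, and the interval of *Bax*, from −1.68 to 0.39, is among the widest.

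The intervals bound what these arrays could have missed. For 27 of the 35 members (77.1%) the 95% interval lay within a log2 difference of 1 in either direction, compared with 66.9% of all genes. The other 8 were *Tnfrsf1a*, *Tnfrsf10b*, *Fas*, *Tnfrsf1b*, *Bcl2l1*, *Bax*, *Bok* and *Pmaip1*. A log2 difference over 0.5 in size was seen in 4 members (11.4%), *Tnfrsf10b*, *Tnfrsf1a*, *Bcl2l1* and *Bax*, compared with 12.7% of all genes. The median SD between mice was 0.23 in β-CB1R+/+ and 0.26 in β-CB1R-/- islets for the members and 0.28 and 0.33 for all genes.

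*Tnf*, the founding ligand of the family, was at the edge of detection. Its probe was well above background on 1 of 8 arrays, the first of the repeat arrays of β-CB1R-/- mouse 2. The measured log2 intensities were −3.93, −6.01, −4.94 and −5.42 in the β-CB1R+/+ mice and −5.44, −3.13 and −5.67 in the β-CB1R-/- mice. All but the value of β-CB1R-/- mouse 2, the highest of the 7, are upper limits, and with 1 mouse above background no fold change is given. *Adam17*, the protease that frees TNF from the membrane, was well above background on 5 of 8 arrays and had a log2 difference of −0.24 (95% interval −0.96 to 0.48).

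Of the 4 receptors, 3 had a positive difference and 1 a negative one. *Tnfrsf1a* encodes TNFR1, the TNF receptor that carries a death domain. Its log2 intensity was 2.12, 2.02, 2.21 and 2.36 in the β-CB1R+/+ mice and 2.33, 2.96 and 2.93 in the β-CB1R-/- mice. β-CB1R-/- mice 2 and 3 lay above every control, while mouse 1 was just below the highest control. The log2 difference was 0.56 (standard error 0.22, limma unadjusted p = 0.0360, adjusted p = 0.999), a fold of 1.48 with a 95% interval of 1.03 to 2.11. An exact permutation test over the mice, two-sided, gave p = 0.0571, where 0.0286 is the smallest value possible for groups of 4 and 3.

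A dimmer probe for *Tnfrsf1a* pointed the same way. It read 0.65, 0.40, 0.67 and 0.92 in β-CB1R+/+ and 1.05, 1.78 and 1.25 in β-CB1R-/- mice. Here the groups did not overlap, and the log2 difference was 0.70 (limma, unadjusted p = 0.0194, adjusted p = 0.999).

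*Tnfrsf10b* encodes the mouse receptor for TRAIL, a death ligand of the same family. Its log2 intensity was −2.93, −2.54, −2.56 and −1.90 in β-CB1R+/+ and −1.60, −1.81 and −2.02 in β-CB1R-/- mice, close to background, with 7 of 8 arrays well above it. The remaining array was that of a β-CB1R+/+ mouse, whose value is an upper limit. β-CB1R+/+ mouse 4 lay among the β-CB1R-/- mice and the other controls lay below them. The log2 difference was 0.67 (standard error 0.27, limma unadjusted p = 0.0388, adjusted p = 0.999; exact permutation p = 0.0857), and with normexp background correction it was 0.29.

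Mean levels of 14 macrophage markers, all of them above the filter, were 0.08 to 0.69 in β-CB1R+/+ and 0.32 to 0.94 in β-CB1R-/- mice, and 11 of the 14 were higher in the latter. These ranges overlapped (exact permutation p = 0.229). With the macrophage mean in the model the log2 difference was 0.35 for *Tnfrsf1a* and 0.52 for *Tnfrsf10b* (limma, unadjusted p = 0.163 and 0.140), while the median over all probes was 0.11. Of the other marker lists, that of stellate cells and fibroblasts had means of −1.63 to 1.65 in β-CB1R+/+ and −0.12 to 0.53 in β-CB1R-/- mice, with 7 of 9 genes higher, and that of alpha cells 3.02 to 3.34 and 2.58 to 3.06, with 1 of 4 higher (exact permutation p = 0.514 and 0.0857). The part of these cells in the receptor values was not tested further.

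*Fas* encodes the receptor for FAS ligand. Its log2 intensity was −0.93, −1.66, −1.28 and −0.57 in β-CB1R+/+ and −0.53, −0.47 and −1.44 in β-CB1R-/- mice. β-CB1R-/- mice 1 and 2 lay just above the highest control and mouse 3 among the lower ones, and the log2 difference was 0.30 (95% interval −0.49 to 1.09). It was 0.12 without β-CB1R+/+ mouse 2, 0.13 without β-CB1R-/- mouse 2 and 0.61 without β-CB1R-/- mouse 3. *Tnfrsf1b*, which encodes the TNF receptor without a death domain, had a difference of −0.27 (95% interval −1.003 to 0.47) and was well above background on 7 of 8 arrays. Its difference was −0.099 without β-CB1R+/+ mouse 1 and −0.49 without β-CB1R+/+ mouse 2.

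RefSeq promoter windows of 32 of the 36 members were used, 44 windows in all, and the 250 bases before the start site were searched on both strands for 4 motifs. Windows of *Tnfrsf1a* and *Fas* are shown because these are the receptors that matched, beside *Tnfrsf1b*, for the STAT type motif TTCNNNGAA. That motif was found in 4 member windows, with *Ripk1* the other gene, and in 7.02% of 32851 windows of all genes. *Fas* also held the AP-1 motif TGANTCA, found in 6.75% of all windows and in no other member. The CRE motif TGACGTCA was found in *Birc2* and *Cycs* (1.55% of all windows), and the NF-kB consensus in *Bcl2l1* and *Bbc3* (3.9% of all windows). Matches describe letters only. The sequences run 5′ to 3′ on the plus strand of GRCm38.p6, at chr6:125349473-125349722 and chr19:34290409-34290658, with matches in capitals, and none of the motifs overlapped another in them.
Tnfrsf1a: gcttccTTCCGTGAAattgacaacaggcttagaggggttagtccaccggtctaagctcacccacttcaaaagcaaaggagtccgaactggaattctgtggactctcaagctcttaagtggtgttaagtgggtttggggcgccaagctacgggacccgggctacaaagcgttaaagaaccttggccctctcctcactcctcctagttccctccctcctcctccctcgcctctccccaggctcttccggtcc
Fas: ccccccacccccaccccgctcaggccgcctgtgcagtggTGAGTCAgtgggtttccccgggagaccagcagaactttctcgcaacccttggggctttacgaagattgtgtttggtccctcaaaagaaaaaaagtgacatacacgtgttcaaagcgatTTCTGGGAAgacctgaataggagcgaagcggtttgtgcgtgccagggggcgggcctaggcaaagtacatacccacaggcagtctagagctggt

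**Figure D2:**
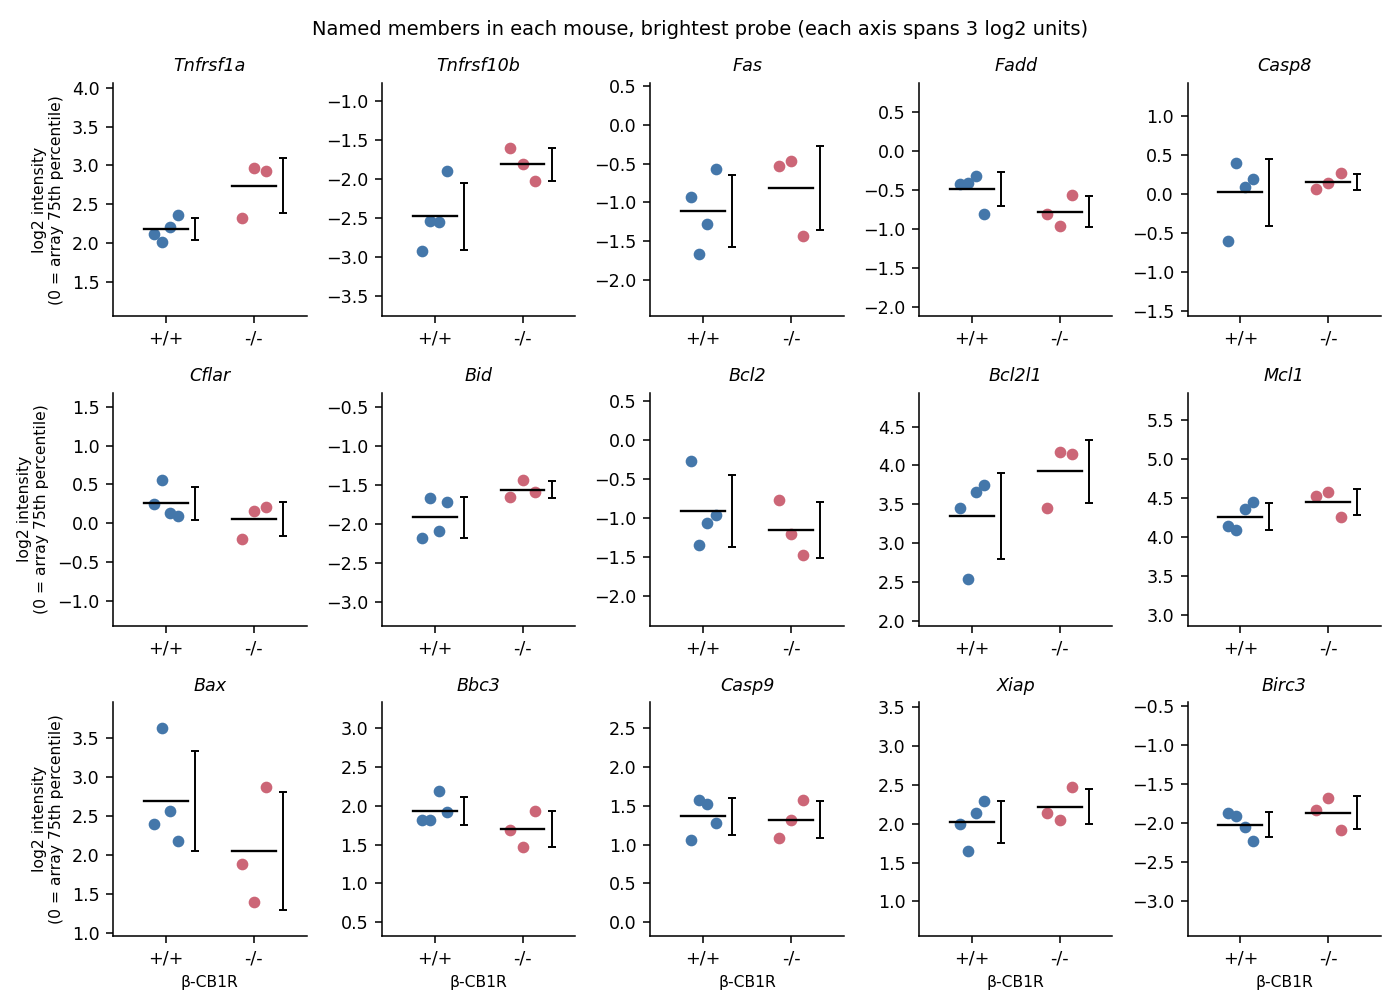
Log2 intensity relative to the 75th percentile of the array (y axis, spanning the same number of log2 units in every panel) for 15 named members in each mouse of the 2 genotypes (x axis, β-CB1R+/+ in blue and β-CB1R-/- in red), with a line at the group mean and a bar for the SD. The 3 values of *Bid* in β-CB1R-/- mice, −1.65, −1.44 and −1.59, lie above all 4 controls, and in the other panels the groups overlap.

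The adaptors and kinases downstream of the receptors held no member at an unadjusted p of 0.05, and 2 of the 6 were higher and 4 lower. *Fadd*, the adaptor that brings caspase-8 to the receptor, had log2 intensities of −0.42, −0.40, −0.33 and −0.81 in β-CB1R+/+ and −0.81, −0.96 and −0.57 in β-CB1R-/- mice. β-CB1R+/+ mouse 4 lay among the β-CB1R-/- mice, and the log2 difference was −0.29 (95% interval −0.77 to 0.19). *Cflar* encodes c-FLIP, the decoy of caspase-8 at the receptor. Its brightest probe read 0.25, 0.56, 0.13 and 0.10 in β-CB1R+/+ and −0.20, 0.16 and 0.21 in β-CB1R-/- mice.

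The groups overlapped for this *Cflar* probe, with a log2 difference of −0.20 (95% interval −0.69 to 0.28), and its other 2 probes had differences of −0.42 and −0.50. In the dimmest of them every β-CB1R-/- mouse lay below every control, at −1.76, −2.92 and −1.71 against −1.51 to −1.70, although mouse 2 made most of that distance (limma, unadjusted p = 0.144). This probe was well above background on 7 of 8 arrays, and the remaining array was a repeat of β-CB1R-/- mouse 2. *Tradd*, the adaptor of TNFR1, had a difference of −0.11 (95% interval −0.55 to 0.33). For *Ripk1*, the kinase that can turn the TNFR1 complex to survival or death, it was 0.13 (95% interval −0.33 to 0.58). As single mice were left out the difference ran from −0.22 to −0.0056 in *Tradd* and from 0.014 to 0.28 in *Ripk1*. The necroptosis genes were at 0.10 for the kinase *Ripk3*, which was well above background on 6 of 8 arrays, and −0.13 for its substrate *Mlkl*.

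Among the caspase and apoptosome genes 2 were higher and 4 lower, with differences from −0.24 to 0.14. *Casp8*, the initiator at death receptors, had log2 intensities of −0.60, 0.40, 0.09 and 0.19 in β-CB1R+/+ and 0.07, 0.14 and 0.27 in β-CB1R-/- mice. β-CB1R+/+ mouse 1 stood below the other 6 mice, and without it the difference of 0.14 became −0.07. *Casp9*, the initiator on the apoptosome, had log2 intensities of 1.06, 1.57, 1.53 and 1.28 in β-CB1R+/+ and 1.08, 1.31 and 1.57 in β-CB1R-/- mice.

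The *Casp9* groups covered the same range, and the difference was −0.04 (95% interval −0.54 to 0.46), with a sign that turned when single mice were left out. The apoptosome scaffold *Apaf1* had a difference of −0.07 and cytochrome c, *Cycs*, one of −0.13, with −0.48 for its dimmer probe. *Casp2*, an initiator tied to DNA damage and cell division, had −0.24, and *Casp6*, an executioner, had 0.13. Each of these 4 intervals included 0.

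The anti-apoptotic BCL2 genes split evenly, 2 higher and 2 lower. *Bcl2l1* encodes BCL-XL, which is widely held to protect beta cells. Its log2 intensity was 3.45, 2.54, 3.66 and 3.74 in β-CB1R+/+ and 3.45, 4.17 and 4.15 in β-CB1R-/- mice. β-CB1R-/- mice 2 and 3 lay above every control and β-CB1R+/+ mouse 2 lay below all other mice, with a log2 difference of 0.58 (95% interval −0.22 to 1.37; limma unadjusted p = 0.132). Without β-CB1R+/+ mouse 2 it was 0.31, with the macrophage mean in the model 0.25 and with normexp background correction 0.84.

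The dimmer probe for *Bcl2l1* did not overlap between the groups. It read −2.21, −2.71, −2.41 and −2.40 in β-CB1R+/+ and −2.09, −1.66 and −2.11 in β-CB1R-/- mice, with a log2 difference of 0.48 (limma, unadjusted p = 0.0539, adjusted p = 0.999). When the probes of each gene were averaged, the groups of 4 members did not overlap, *Tnfrsf1a*, *Bcl2l1*, *Bad* and *Bid*, against 5.05% of all genes treated in the same way.

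*Bcl2*, the founding anti-apoptotic gene, had log2 intensities of −0.26, −1.35, −1.07 and −0.96 in β-CB1R+/+ and −0.76, −1.21 and −1.48 in β-CB1R-/- mice. Its groups overlapped, with a difference of −0.24 (95% interval −0.94 to 0.46) that ran from −0.43 to −0.022 as single mice were left out, the smallest without β-CB1R+/+ mouse 1. *Mcl1*, a short-lived protector that is renewed by transcription, had 4.14, 4.09, 4.36 and 4.45 in β-CB1R+/+ and 4.52, 4.57 and 4.26 in β-CB1R-/- mice. β-CB1R-/- mice 1 and 2 lay above the controls and mouse 3 among them, and the difference was 0.19 (95% interval −0.25 to 0.64). The probes of *Bcl2l2*, which encodes BCL-W, disagreed in sign at −0.09 and 0.07.

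Among the roles, the pore-forming genes had the highest median SD between mice, 0.60 in β-CB1R+/+ and 0.76 in β-CB1R-/- islets. *Bax*, an effector that permeabilises the outer mitochondrial membrane, had log2 intensities of 2.40, 3.64, 2.57 and 2.18 in β-CB1R+/+ and 1.88, 1.39 and 2.88 in β-CB1R-/- mice. β-CB1R+/+ mouse 2 and β-CB1R-/- mouse 3 were the highest of the 7, and the difference was −0.65 (95% interval −1.68 to 0.39; limma unadjusted p = 0.189). Leaving out β-CB1R-/- mouse 2 or β-CB1R+/+ mouse 2 gave −0.32 and −0.33 for *Bax*, and leaving out β-CB1R-/- mouse 3 gave −1.06. *Bok*, a relative of BAX and BAK, had 2.04, 0.70, 1.62 and 1.88 in β-CB1R+/+ and 2.60, 2.14 and 0.94 in β-CB1R-/- mice, so that the same animals were the lowest. Its difference was 0.33 (95% interval −0.73 to 1.40), and it was 0.048 without β-CB1R+/+ mouse 2, −0.019 without β-CB1R-/- mouse 1, 0.21 without β-CB1R-/- mouse 2 and 0.81 without β-CB1R-/- mouse 3. *Bak1* had a difference of −0.32 (95% interval −0.88 to 0.25), with β-CB1R-/- mice 1 and 2 below every control and mouse 3 above them. It was −0.10 without β-CB1R-/- mouse 2 and −0.56 without β-CB1R-/- mouse 3.

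These animals also had the lowest levels of exocrine genes. The mean of 14 acinar markers, all above the filter and 13 of them higher in β-CB1R-/- islets (median log2 difference 0.17, none at an unadjusted limma p under 0.05), was 10.63, 9.56, 10.40 and 10.37 in β-CB1R+/+ and 10.76, 10.71 and 9.72 in β-CB1R-/- mice. A slope on this mean beside genotype was fitted after the values of single mice were seen. *Bok* had a slope of 1.34 log2 units per log2 unit of the acinar mean (standard error 0.19, limma adjusted p = 0.0233), the 1 member past the threshold, against 2.9% of all genes and 3.13% of all probes. The call was lost, with an adjusted limma p from 0.0560 to 0.165, when β-CB1R+/+ mouse 1, 2 or 3 or β-CB1R-/- mouse 1 or 3 was left out. *Bax* had a slope of −1.24 (limma, adjusted p = 0.0512).

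At an unadjusted p of 0.05 there were 5 members with an acinar slope, *Bok*, *Bax*, *Fas*, *Bcl2* and *Tnfrsf1b*, against 27.4% of all genes. Without the 2 mice of low acinar level the slope of *Bok* was 1.26 and that of *Tnfrsf1b* 1.72 (limma, unadjusted p = 0.340 and 0.272), those of *Bax* and *Fas* turned to 0.49 and −0.34, and that of *Bcl2* went from 0.64 to 3.11. In that fit of 5 mice 4 members had an unadjusted limma p under 0.05, *Bcl2*, *Bcl2l11*, *Casp8* and *Pmaip1*, against 11.8% of all genes, and that of *Pmaip1* is counted but not read, since some of its values are upper limits. With the acinar mean in the model the genotype difference of *Bax* was −0.45, that of *Fas* 0.17 and that of *Bcl2* −0.34. Those of *Tnfrsf1a* and *Tnfrsf10b* were then 0.57 and 0.65. The 250 bases before the start of *Bok*, shown beside these slopes, lie at chr1:93685325-93685574 (GRCm38.p6, plus strand) and held none of the 4 motifs.
Bok: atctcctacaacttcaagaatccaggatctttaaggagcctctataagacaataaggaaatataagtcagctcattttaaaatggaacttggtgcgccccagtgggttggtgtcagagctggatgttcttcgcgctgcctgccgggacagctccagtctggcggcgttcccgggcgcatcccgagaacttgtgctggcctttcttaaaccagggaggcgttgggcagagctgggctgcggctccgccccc

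**Figure D3:**
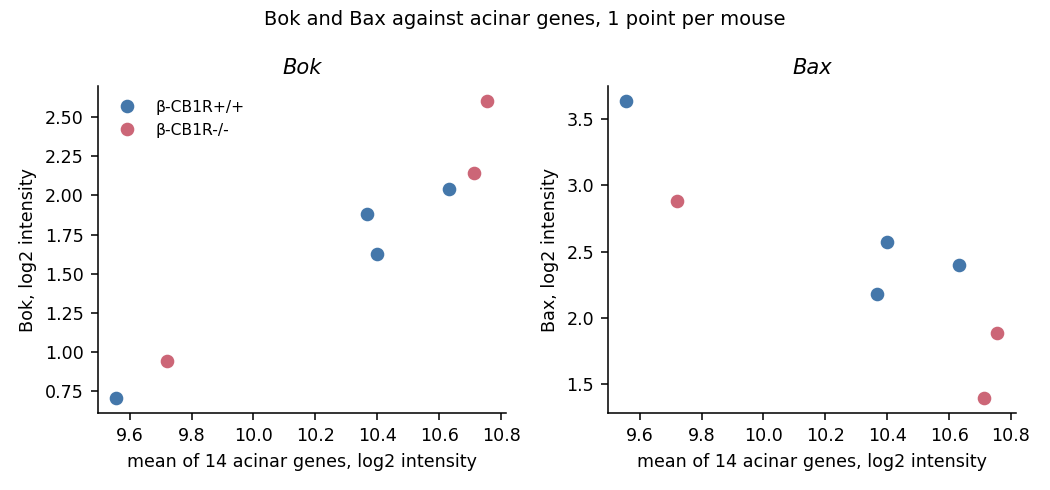
Log2 intensity of *Bok* (left, y axis) and *Bax* (right, y axis) against the mean log2 intensity of 14 acinar genes (x axis), with 1 point for each of 4 β-CB1R+/+ mice (blue) and 3 β-CB1R-/- mice (red). The 2 mice with an acinar mean of 9.56 and 9.72 have the lowest *Bok* and the highest *Bax*, and the other 5 mice lie close together on the x axis.

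The 7 BH3-only genes, which sense stress and trigger the mitochondrial route, included 4 that were higher and 3 that were lower. *Bid* links the death receptors to the mitochondrion. Its log2 intensity was −2.19, −1.66, −2.09 and −1.72 in β-CB1R+/+ and −1.65, −1.44 and −1.59 in β-CB1R-/- mice. Every β-CB1R-/- mouse lay above every control, though the nearest pair were 1.65 and 1.66 below the 75th percentile. The log2 difference was 0.36 (95% interval −0.12 to 0.84; limma unadjusted p = 0.126; exact permutation p = 0.114), a fold of 1.28. With normexp background correction it was 0.15, and the groups overlapped on the Z scores and in the deposited value table.

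*Bbc3*, the p53 target that encodes PUMA, had log2 intensities of 1.82, 1.81, 2.19 and 1.92 in β-CB1R+/+ and 1.69, 1.47 and 1.93 in β-CB1R-/- mice. β-CB1R-/- mice 1 and 2 lay below the controls and mouse 3 among them, with a difference of −0.24 (95% interval −0.71 to 0.23). *Bad*, which is held inactive by growth factor signalling, had 0.39 (95% interval −0.20 to 0.97), or 0.20 without β-CB1R+/+ mouse 2, and its dimmer probe 0.27. *Bik* had 0.13, *Bmf* −0.0036 and *Bcl2l11*, which encodes BIM, −0.20, and all 3 intervals included 0.

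The IAP genes and their antagonist showed small differences, from −0.18 to 0.20. *Xiap*, the direct inhibitor of caspases, had log2 intensities of 2.00, 1.65, 2.14 and 2.29 in β-CB1R+/+ and 2.13, 2.05 and 2.47 in β-CB1R-/- mice. *Birc3*, a cIAP and a target of NF-kB, had −1.88, −1.91, −2.05 and −2.24 in β-CB1R+/+ and −1.83, −1.68 and −2.09 in β-CB1R-/- mice. In both genes the groups overlapped, with differences of 0.20 (95% interval −0.32 to 0.72) and 0.15 (95% interval −0.30 to 0.61). *Birc2*, the other cIAP, had −0.07, and the probes of *Diablo*, whose product displaces IAPs from caspases, disagreed in sign at −0.18 and 0.05.

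The members were also set out by the side they take. The 24 pro-death genes had a median log2 difference of −0.022, with 11 higher and 13 lower, and the 8 anti-death genes one of 0.044, with 4 higher and 4 lower, beside −0.039 for all genes. *Tnf*, *Adam17*, *Tnfrsf1b* and *Ripk1* can act either way and were kept apart. With each gene centred on its mean over the 7 mice, the pro-death mean was −0.09, −0.05, 0.01 and 0.08 in β-CB1R+/+ and 0.03, −0.02 and 0.03 in β-CB1R-/- mice. Without *Pmaip1*, most of whose values are upper limits, the other 23 genes had a median difference of −0.040 and means of −0.039, −0.036, −0.0047 and 0.041 against 0.052, −0.064 and 0.051. The anti-death mean was 0.08, −0.18, −0.0028 and −0.0075 in β-CB1R+/+ and −0.02, 0.05 and 0.08 in β-CB1R-/- mice. On both sides the groups overlapped, and the order of the medians turned when β-CB1R+/+ mouse 4 (−0.0019 pro-death, −0.010 anti-death) or β-CB1R-/- mouse 3 (0.046 and −0.00073) was left out.

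**Figure D4:**
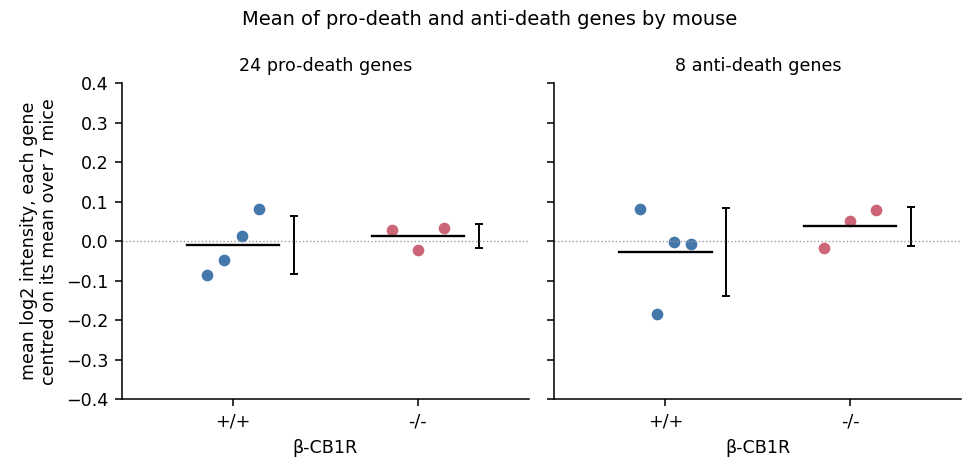
Mean log2 intensity of 24 pro-death genes (left) and 8 anti-death genes (right) in each mouse, each gene centred on its mean over 7 mice (y axis), for β-CB1R+/+ (blue) and β-CB1R-/- mice (red), with a line at the group mean and a bar for the SD. The β-CB1R-/- mice lie between −0.02 and 0.03 on the left and between −0.02 and 0.08 on the right, and overlap with the controls on both sides. *Pmaip1*, with 3 mice above background, is among the genes on the left.

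Immediate-early genes, which isolation and handling of islets can induce, differed widely between mice of 1 genotype. The mean of 12 of them was −0.88, −1.30, 3.46 and 2.47 in β-CB1R+/+ and −0.37, 3.56 and −0.88 in β-CB1R-/- mice. No member had a slope on this mean past an adjusted p of 0.05 (limma), against 40 of 39165 probes (0.102%). At an unadjusted p of 0.05 there was 1 member, *Pmaip1*, against 3.08% of all genes, and it passed the filter only through the 3 mice of high immediate-early level.

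*Pmaip1*, which encodes the BH3-only protein NOXA, had log2 intensities of −4.83, −4.03, −3.27 and −2.66 in β-CB1R+/+ and −4.19, −2.75 and −4.09 in β-CB1R-/- mice. It was well above background only in the 3 mice of high immediate-early level, so that it entered the comparison through them, the other values are upper limits in both groups, and no slope is given. The same holds for its genotype difference, which counted as higher among the BH3-only genes and is not read here.

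A dimmer probe for *Mcl1*, named after its values were seen, had 0.48, 0.29, 1.497 and 1.34 in β-CB1R+/+ and 0.84, 1.90 and 0.51 in β-CB1R-/- mice. It was highest in the same 3 mice, with a slope of 0.27 (limma, adjusted p = 0.256), against 0.06 for the brightest probe of this gene (limma, adjusted p = 0.964).

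Of 87 other genes of the same pathways, 79 could be compared. In this wider list 42 were higher and 37 lower, the median log2 difference was 0.02, and none passed an adjusted p of 0.05. An unadjusted limma p under 0.05 was reached by 6 of the 79, against 3.9% of all genes. Groups did not overlap in 6 of the 79, against 4.83% of all genes. A log2 difference over 0.5 in size was seen in 17.7% of the list, against 12.7% of all genes. *Cradd*, an adaptor that recruits caspase-2, had log2 intensities of 0.37, 0.52, 0.58 and 0.77 in β-CB1R+/+ and 1.07, 1.52 and 1.77 in β-CB1R-/- mice. Every β-CB1R-/- mouse lay above every control, with a difference of 0.89 (limma, unadjusted p = 0.00432, adjusted p = 0.847).

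*Trib3*, a stress-induced pseudokinase, had a log2 difference of 1.99 (95% interval 0.33 to 3.65), and its groups did not overlap, at −1.08 to 1.91 in β-CB1R+/+ and 2.28 to 3.80 in β-CB1R-/- mice. The lowest control was β-CB1R+/+ mouse 2, against 1.26 to 1.91 in the others, and without it the difference was 1.34. *Tnfrsf12a*, the receptor for TWEAK, had a difference of −0.68 (95% interval −1.20 to −0.16) and *Tnfrsf22*, a decoy receptor for TRAIL, one of −0.53 (95% interval −0.95 to −0.11), with no overlap in either. *Bcl2l14*, a BCL2 family gene, had 0.60 (95% interval 0.05 to 1.14). Groups also did not overlap in *Tmbim6*, which encodes BAX inhibitor 1, and in the receptor gene *Tnfrsf21*, with differences of 0.86 and 0.29 (limma, unadjusted p = 0.102 and 0.143). β-CB1R+/+ mouse 1 had *Tmbim6* at 1.77 against 3.60 to 3.66 in the other controls, and without it the difference was 0.39. *Casp1*, the inflammatory caspase, was the last at an unadjusted p under 0.05, with 0.48. *Fasl*, *Casp12*, *Hrk*, *Naip1*, *Bcl2a1a*, *Bcl2a1b*, *Bcl2l10* and *Bcl2l15* were well above background in too few mice or had no matching probe, and were not compared.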

How the data were processed

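Islet RNA of 4 β-CB1R+/+ and 3 β-CB1R-/- mice was measured on 8 arrays. The authors deposited the spot intensity from Feature Extraction 11.5.1.1, with background subtracted within each array and no scaling between arrays. The authors also deposited a value table of Z scores per array, unit score, which matched the standardised log10 intensity to within 0.00503 and served as an alternative. Control spots and irregular spots were left out, each array was set to 0 at its 75th percentile on the log2 scale, and both the spots of a probe and the repeat arrays of 1 mouse were averaged. No spot was saturated. A probe was kept where 3 or more of the 7 mice had it well above background (39165 of 55681 probes), and of these 22135 matched a gene symbol through their transcript accession in the RefSeq annotation of GRCm38.p6, used for names only since the array header names another build.

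Each probe was compared between genotypes by the two-sided moderated test of limma 3.58.1 in R 4.3.3, with Benjamini-Hochberg adjustment over all probes kept, and by exact permutation over the 35 splits of the mice for single genes. How the authors analysed the arrays is described in another article, not used here. The script was tested on simulated data. The number of arrays limits the precision, and p-values measure the spread between these mice only. The members, their roles, the pathway and marker lists and the naming rule were chosen with earlier results of these data known. Values in each mouse were given for members at an unadjusted p under 0.05 or without overlap and for 15 members fixed by name. Those of *Bok* and of second probes were added after they were seen. *Casp1*, *Tmbim6* and *Tnfrsf21* were named beyond the rule for other pathway genes, also after their values were seen. Alternatives were normexp background correction (offset 50, on median intensities, since the files used here hold no mean intensity), quantile and Z score scaling, other filters, each repeat array alone, the mean of a gene's probes, a replicate block, an intensity trend, the methods' *t* test, covariates and each mouse left out. Promoter windows were those of RefSeq for GRCm38.p6.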

Additional observations from a re-analysis of the deposited data

Results flagged for a closer look

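Among 35 β-CB1R+/+ groups of member values examined, 1 held a mouse far from the others, where about 1.75 would be reached by chance at 1 in 20. The log2 intensity of *Bad*, the BH3-only gene, was 1.90 in β-CB1R+/+ mouse 2 against 2.57 to 2.69 in the other 3 controls, and without this mouse the genotype difference of 0.39 was 0.20. The 3 β-CB1R-/- mice read 2.59, 3.01 and 2.91. The dimmer probe of *Bad* read −1.35 in the same mouse, the highest of the 4 controls, so that the low value was not shared by the second probe.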

How the results depend on the processing

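No member passed an adjusted p of 0.05 between genotypes under any alternative. *Tnfrsf1a* and *Tnfrsf10b* kept a positive difference in all of those run, from 0.35 to 0.77 and from 0.29 (normexp) to 0.86. Members at an unadjusted p under 0.05 numbered 1 with normexp, quantile, Z score, deposited scores, an intensity trend, the methods' *t* test, the acinar covariate and the strict filter (*Tnfrsf1a*), 1 without a filter or with the replicate block (*Tnfrsf10b*), and 0 with the macrophage covariate, in place of 2. With a mouse left out they numbered 0 to 3. Members without overlap numbered 0 with Z scores or deposited scores (4.62% and 4.05% of all genes), 4 with the mean of a gene's probes (5.05%) and 1 to 14 with a mouse left out. The 14 came without β-CB1R-/- mouse 3, when 29.9% of all genes also did not overlap, and *Bak1*, *Bax* and *Tnfrsf10b* were then at an unadjusted p under 0.05, against 10.1% of all genes. Without that mouse the pro-death median was 0.046, and the range with a mouse left out was −0.050 to 0.046. The anti-death median was −0.020 with normexp, −0.010 with the replicate block and −0.010 to 0.064 with a mouse left out.

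Probes past the adjusted threshold, 43 in the comparison as reported, numbered 23 without a filter, 24 with the strict filter, 18 with the immediate-early covariate, 23 with the acinar covariate, 4 with the macrophage covariate, 0 with the *t* test (1412 at an unadjusted p under 0.05) and 0 to 42 with a mouse left out. The replicate block gave 0 (1714 unadjusted). The labels do not say whether mice of the same number are paired. Correlations of same-numbered deviations were 0.42, −0.27 and −0.062, which cannot decide it. *Casp9* changed sign with the acinar covariate (0.019) and without β-CB1R+/+ mouse 2, β-CB1R+/+ mouse 3 or β-CB1R-/- mouse 1, and ranged from −0.16 to 0.079 with a mouse left out. *Bcl2* (0.028) and *Casp8* (−0.041) did so with the macrophage covariate, and *Casp8* ranged from −0.070, without β-CB1R+/+ mouse 1, to 0.26. With a mouse left out the difference ranged from 0.072 to 0.29 in *Xiap*, 0.062 to 0.27 in *Birc3* and −0.28 to −0.076 in *Cflar*. It ranged from −0.36 to −0.13 in *Bbc3* and 0.13 to 0.29 in *Mcl1*, and none of these genes changed sign. With the macrophage covariate *Xiap* was at 0.011 and *Birc3* at 0.31, and with normexp they were at 0.47 and 0.017. Of the members whose values by mouse are not given, *Adam17*, *Apaf1*, *Bcl2l2*, *Bcl2l11*, *Bmf*, *Casp6*, *Cycs*, *Mlkl* and *Ripk3* changed sign when some mouse was left out, as did *Bok* and *Pmaip1*. The acinar slope of *Bax* was 0.49 without the 2 mice lowest in acinar genes. That of *Bok* was 1.23 to 1.41 with a mouse left out, with an adjusted limma p of 0.0419 to 0.165 that missed the threshold in 5 of the 7 cases. Causes were not tested. Overlap does not depend on the block, trend, *t* test or covariates and was not recomputed there, and the immediate-early slope was not run with covariates, the block or the *t* test.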
